A study of Mus musculus with 12 samples.

Results

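The genes examined here encode 9 nonreceptor tyrosine kinases: the Src family kinases *Src*, *Yes1*, *Fyn* and *Lyn*, the Src inhibitor *Csk*, the Abl kinases *Abl1* and *Abl2*, and the focal adhesion kinases *Ptk2* (FAK) and *Ptk2b* (PYK2). They were found in the deposited expression matrix by the stable part of their Ensembl identifiers, 9 genes of 56980, and all 9 had enough counts to be tested. Bulk RNA-Seq was carried out on W-20 cells, a murine bone marrow stromal cell (BMSC) line, in 12 libraries, 3 in each of 4 groups. Unmodified W-20 cells (WT) and a stably modified W-20 line (Y428F) were each exposed for 2 hours to 50 nM parathyroid hormone (PTH) or to vehicle (PBS). The Y428F line carries a Flag-tagged YAP plasmid in which a tyrosine that Src phosphorylates is changed to phenylalanine, and its cells were selected with puromycin. The study also made a line in which a serine of YAP is changed to alanine as well, and its text names that double mutant when it introduces the RNA-Seq comparison, whereas the library titles and other passages name the tyrosine change alone. The methods speak of selected clones, and the sources used here do not say whether the sequenced cells came from 1 clone or several. The genotype label of the Y428F libraries reads WT, so the groups were taken from the titles. Cells with introduced wild-type YAP were not analysed here, so the mutation cannot be told apart from other ways in which the lines differ.

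Src family kinases sit at the inner face of the cell membrane and at focal adhesions, where they pass signals from integrins and hormone receptors to cytosolic substrates, among them YAP. Csk keeps them inactive by phosphorylating a tyrosine in their C-terminal tail, and membrane anchors such as the product of *Pag1* bring Csk to them. FAK and PYK2 are scaffolds that recruit Src to adhesions, and the Abl kinases act downstream of Src on adaptors that control actin. These signals are carried by phosphorylation, which RNA-Seq does not measure: the values here are transcript levels only.

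The last 18 codons of the coding sequences are shown to set apart the kinases that hold the tyrosine which Csk phosphorylates. They were read from GRCm39 with GENCODE vM39, 5′ to 3′ on the coding strand with the stop codon included, and the last tyrosine codon is in capitals. *Fgr*, a family member that differed between the cell lines, is shown beside the 4 examined, and *Csk* itself is shown for contrast.
Src, chr2:157311828-157311881, plus strand: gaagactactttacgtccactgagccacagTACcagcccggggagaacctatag
Yes1, chr5:32842050-32842103, plus strand: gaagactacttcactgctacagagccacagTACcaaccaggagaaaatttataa
Fyn, chr10:39439915-39439968, plus strand: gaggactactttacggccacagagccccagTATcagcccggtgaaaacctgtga
Lyn, chr4:3789891-3789944, plus strand: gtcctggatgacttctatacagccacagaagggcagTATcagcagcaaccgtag
Fgr, chr4:132727601-132727654, plus strand: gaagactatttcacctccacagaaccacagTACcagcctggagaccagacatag
Csk, chr9:57534604-57534657, minus strand: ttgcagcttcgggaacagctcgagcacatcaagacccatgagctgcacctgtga
In *Src*, *Yes1*, *Fyn* and *Fgr* the tail tyrosine codon was followed by 6 codons before the stop. In *Lyn* it was followed by 4. The printed end of *Csk* had no tyrosine codon, and the last one of its coding sequence lay 34 codons before the stop.

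Library totals ranged from 17127897 to 19057319 counts. Expression is given in CPM, counts scaled to the library total, after TMM normalization, which scales libraries on the assumption that most genes do not change, and as mean ± SD over 3 libraries. Changes were called at an adjusted p under 0.05 with the quasi-likelihood test of edgeR, adjusted by the Benjamini-Hochberg method over all genes tested. The PTH response in WT cells came from a fit of the 6 WT libraries, over 15583 genes, and the other comparisons from a fit of all 12, over 17691 genes. The labels do not say whether the replicates were separate cultures, so p-values measure the spread between these libraries, which may be technical. In bulk RNA, fewer cells of a type and less RNA per cell cannot be told apart.

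The stromal label was checked against marker genes. The collagen genes *Col1a1* and *Col1a2* and the intermediate filament gene *Vim* were abundant in all groups, and *Col1a2* was the most abundant of the list, with a mean of 12829 CPM in WT cells with vehicle. The 10 stromal markers summed to between 24805 and 28015 CPM in WT cells with vehicle and between 17974 and 19322 CPM in Y428F cells with vehicle. *Thy1* and *Nt5e*, surface proteins that define cultured stromal cells, fell below the limit of 10 counts in all, and *Lepr*, the leptin receptor of marrow stromal cells, was low and higher in Y428F cells. It had 0.264, 0.0569 and 0.107 CPM in the WT and 1.04, 1.06 and 0.983 CPM in the Y428F vehicle libraries (log2 fold change 2.77, SE 0.54, adjusted p = 0.000244), the opposite direction to the sum of the stromal markers. *Cd44* was higher in Y428F cells with vehicle too (log2 fold change 0.19, adjusted p = 0.00917). *Col1a1* (-0.37), *Col1a2* (-0.73), *Pdgfrb* (-1.51), *Eng* (-0.75) and *Cxcl12* (-0.54) were lower there, and *Vim* did not pass the test (-0.11, adjusted p = 0.140). Osteoblast and adipocyte markers summed to less than 0.5 CPM in every library. Blood and endothelial markers summed to between 2.05 and 2.36 CPM in WT cells with vehicle and between 11.0 and 12.6 CPM in Y428F cells with vehicle. *Cdh5*, the endothelial cadherin, was the most abundant of these in Y428F cells, at a mean of 7.95 CPM with vehicle, and *Pecam1* was near 0. The part of this difference in the values below was not tested.

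Per kilobase of transcript, the level of the kinase genes in WT cells with vehicle followed the order *Abl1*, *Csk*, *Src*, *Ptk2*, *Fyn*, *Yes1*, *Abl2*, *Ptk2b* and *Lyn*. *Abl1* had 43.7 ± 4.09 CPM per kilobase, *Csk* 33.7 ± 1.09 and *Src* 23.2 ± 2.59 (SD, n = 3 each). *Lyn*, best known from blood cells, was the lowest at 1.87 ± 0.126 CPM per kilobase. All neighbours in this order had separate ranges over the 3 libraries. In Y428F cells with vehicle *Ptk2* moved up to second place at 26.2 ± 1.23 CPM per kilobase, and its range there overlapped those of *Csk* and *Src*. With the union of exons as length it was in place 4 in both groups, at 9.79 CPM per kilobase in Y428F cells with vehicle beside 18.0 for *Src*, 15.2 for *Abl1* and 14.1 for *Csk*. Lengths were those of the canonical transcript of each gene, and the sum over the 9 genes was 149 ± 8.58 CPM per kilobase in WT cells with vehicle and 145 ± 1.81 in Y428F cells with vehicle.

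**Figure D1:**
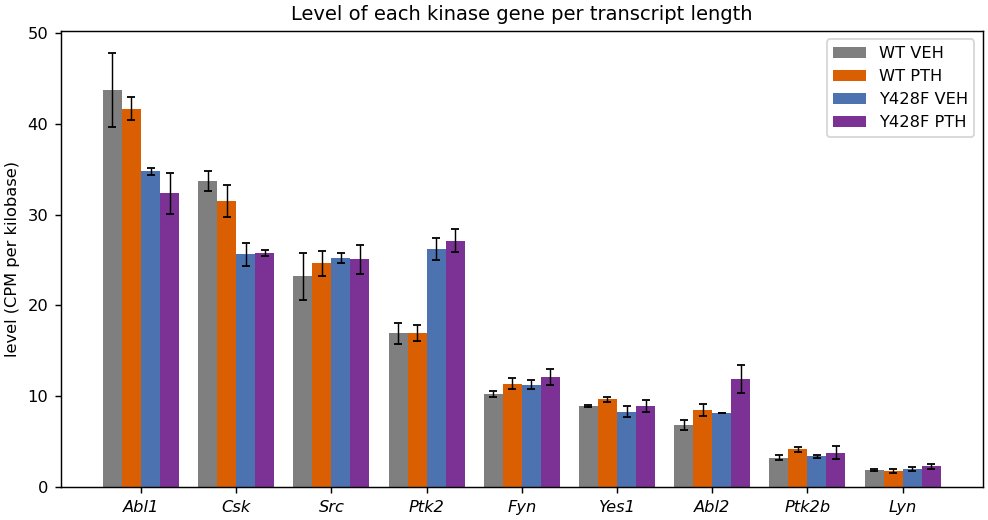
Level of each kinase gene in CPM per kilobase of its canonical transcript (bars, mean of 3 libraries; error bars, SD), ordered by the level in WT cells with vehicle (VEH). *Ptk2* stands at 16.9 CPM per kilobase in WT cells with vehicle and at 26.2 in Y428F cells with vehicle, next to *Csk* and *Src*.

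*Src* itself, the kinase whose phosphorylation site in YAP is mutated, showed no change in its transcript that passed the test. It lies on chromosome 2 of GRCm39 (157260355 to 157313782, plus strand). WT cells had 87.4, 95.4 and 109 CPM with vehicle and 107, 105 and 96.7 CPM with PTH, and Y428F cells had 105, 108 and 104 CPM with vehicle and 98.7, 112 and 104 CPM with PTH. The PTH libraries lay within or close to the vehicle range in both lines, and the widest spread was among the WT vehicle libraries. The log2 fold change with PTH was 0.091 in WT cells (95% interval -0.077 to 0.26, adjusted p = 0.539) and -0.011 in Y428F cells (-0.16 to 0.14, adjusted p = 0.955). Between the lines it was 0.12 higher in Y428F cells with vehicle (-0.028 to 0.27, adjusted p = 0.183) and 0.026 with PTH (-0.12 to 0.18, adjusted p = 0.803). The difference with vehicle passed the test without WT vehicle replicate 3 (log2 fold change 0.21, adjusted p = 0.0200) and when libraries were scaled by their totals only (adjusted p = 0.0325).

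For *Yes1* and *Fyn*, which are expressed in most tissues as *Src* is, no comparison passed the test. *Yes1* (chromosome 5, 32768101 to 32845256) had 50.2, 51.0 and 49.7 CPM with vehicle and 53.2, 56.0 and 53.6 CPM with PTH in WT cells. *Fyn* (chromosome 10, 39244851 to 39442227) had 47.2, 44.3 and 46.0 CPM with vehicle and 52.0, 52.5 and 47.9 CPM with PTH. All 3 PTH libraries were above all 3 vehicle libraries for both genes, but their log2 fold changes of 0.12 and 0.15 did not pass the test (adjusted p = 0.326 and 0.204), and 29% of all genes tested showed no overlap between these groups. In Y428F cells the log2 fold changes were 0.11 and 0.10 with overlapping groups. The expected counts of *Yes1* were not whole in any of the 12 libraries (further than 0.001 counts from a whole number), which shows that some of its reads were shared out between it and another gene. *Fyn* with vehicle was 0.13 higher on the log2 scale in Y428F than in WT cells, and this passed the test only when libraries were scaled by their totals (adjusted p = 0.118 with TMM and 0.0221 with totals).

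*Lyn* (chromosome 4, 3678061 to 3813122) had only 88 to 163 counts per library. It stood at 6.61, 6.14 and 7.03 CPM with vehicle and 5.19, 6.34 and 6.93 CPM with PTH in WT cells, and at 6.74, 6.32 and 7.75 CPM and 7.21, 9.15 and 7.82 CPM in Y428F cells. With PTH all Y428F libraries were above all WT libraries. The log2 fold change between the lines was 0.39 with PTH (SE 0.14, adjusted p = 0.0281) and 0.071 with vehicle (95% interval -0.22 to 0.36, adjusted p = 0.721). The call with PTH was lost without WT PTH replicate 1 (adjusted p = 0.130), Y428F PTH replicate 2 (0.163) or Y428F PTH replicate 3 (0.0544), and with DESeq2's Wald test (0.0515).

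*Csk* was lower in Y428F cells, and no change with PTH passed the test. The gene lies on chromosome 9 (57533543 to 57560914, minus strand). WT cells had 106, 104 and 111 CPM with vehicle and 96.6, 106 and 96.6 CPM with PTH, whereas Y428F cells had 83.6, 76.5 and 83.4 CPM with vehicle and 81.3, 82.7 and 80.9 CPM with PTH. Every Y428F library was below every WT library. Its log2 fold change was -0.40 with vehicle (SE 0.058, adjusted p = 8.32e-06) and -0.29 with PTH (SE 0.058, adjusted p = 0.000308), and it kept its direction and its call with each library left out in turn. With PTH the log2 change was -0.091 in WT cells (95% interval -0.22 to 0.042) and 0.0084 in Y428F cells (-0.11 to 0.13). The ratio of *Src* to *Csk* per kilobase was 0.627, 0.694 and 0.745 in the WT vehicle libraries and 0.951, 1.07 and 0.943 in the Y428F vehicle libraries, ranges that did not meet.

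**Figure D2:**
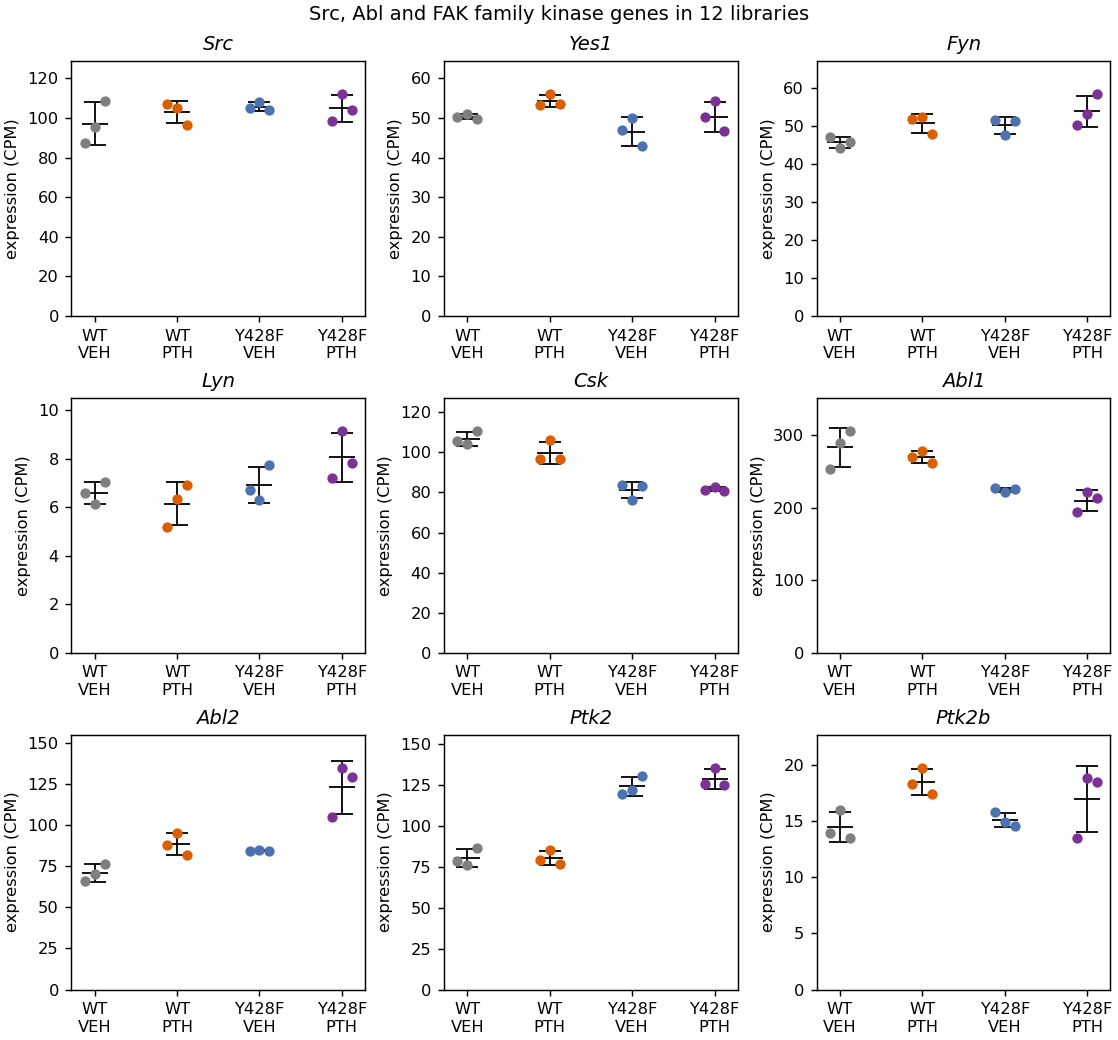
Expression in CPM (linear axis from 0) of the 9 kinase genes in each of the 12 libraries (points), with the mean and SD of each group of 3 (black). For *Csk* and *Abl1* all Y428F libraries lie below all WT libraries, for *Ptk2* all lie above, and for *Abl2* the PTH libraries lie above the vehicle libraries of the same line.

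*Abl2* (ARG, chromosome 1, 156386330 to 156491178) was the member that changed with PTH in both cell lines. In WT cells it had 66.0, 70.2 and 76.6 CPM with vehicle and 87.6, 95.3 and 82.0 CPM with PTH. In Y428F cells it had 84.4, 84.6 and 84.5 CPM with vehicle and 105, 135 and 129 CPM with PTH. The PTH libraries were above the vehicle libraries in each line, and the Y428F vehicle libraries reached the range of the WT PTH libraries. The log2 fold change with PTH was 0.32 in WT cells (SE 0.075, adjusted p = 0.0137) and 0.54 in Y428F cells (SE 0.080, adjusted p = 0.000107). The call in WT cells was lost without WT PTH replicate 1 (adjusted p = 0.0537) or replicate 2 (0.0695), whereas that in Y428F cells held with each library left out.

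The response of *Abl2* was 0.23 larger on the log2 scale in Y428F than in WT cells, which did not pass the test (95% interval -0.014 to 0.47, unadjusted p = 0.0638, adjusted p = 0.758). Between the lines *Abl2* was higher in Y428F cells by 0.25 on the log2 scale with vehicle (SE 0.082, adjusted p = 0.0155) and by 0.48 with PTH (SE 0.081, adjusted p = 4.70e-05). The difference with vehicle was lost without WT vehicle replicate 1 (adjusted p = 0.0663). *Abl2* shares 859 exonic bases in GENCODE vM39 with *Tor3a* on the opposite strand, and whether counting used strand was not stated, so reads from the shared stretch may have been given to either gene. *Tor3a* was at 154 ± 3.97 CPM in the WT and 37.4 ± 1.54 CPM in the Y428F vehicle libraries, and its log2 fold changes with PTH were 0.0030 in WT cells (adjusted p = 0.993) and -0.087 in Y428F cells (adjusted p = 0.763). The part of this overlap in the values of *Abl2* was not tested.

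*Abl1* (chromosome 2, 31578333 to 31697112), the more abundant Abl kinase, was lower in Y428F cells. It had 254, 289 and 305 CPM with vehicle and 269, 278 and 262 CPM with PTH in WT cells. In Y428F cells it had 227, 222 and 226 CPM with vehicle and 193, 222 and 213 CPM with PTH. No Y428F library reached the lowest WT library. Between the lines the log2 fold change was -0.33 with vehicle (SE 0.066, adjusted p = 0.000290) and -0.37 with PTH (SE 0.066, adjusted p = 0.000104). No change with PTH passed the test in either line (log2 fold changes of -0.062, adjusted p = 0.667, and -0.10, adjusted p = 0.376). The ratio of *Abl2* to *Abl1* per kilobase was 0.157 ± 0.00541 in WT cells with vehicle, 0.204 ± 0.00902 with PTH, 0.234 ± 0.00316 in Y428F cells with vehicle and 0.365 ± 0.0238 with PTH (SD, n = 3 each), and the ranges of the 4 groups did not meet. The ratio depended on the length used, and the union of exons gave 0.266, 0.347, 0.399 and 0.623, in the same order of groups.

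*Ptk2*, which encodes FAK, had the largest difference between the lines among the 9 genes, with vehicle and with PTH. It lies on chromosome 15 (73076832 to 73295129, minus strand). WT cells had 78.5, 75.8 and 86.2 CPM with vehicle and 78.9, 84.9 and 76.6 CPM with PTH. Y428F cells had 119, 122 and 130.4 CPM with vehicle and 125, 135 and 125 CPM with PTH. All Y428F libraries were above all WT libraries, and the treatments overlapped within each line. The log2 fold change between the lines was 0.63 with vehicle (SE 0.063, adjusted p = 5.48e-08) and 0.68 with PTH (SE 0.063, adjusted p = 1.83e-08). With PTH it was 0.0062 in WT cells (95% interval -0.15 to 0.16) and 0.052 in Y428F cells (-0.078 to 0.18).

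*Ptk2b*, which encodes PYK2, a kinase of the same family that responds to calcium, rose with PTH in WT cells from a low level. The gene lies on chromosome 14 (66386033 to 66518939, minus strand). WT cells had 13.96, 16.0 and 13.5 CPM with vehicle and 18.3, 19.7 and 17.4 CPM with PTH, without overlap. Y428F cells had 15.8, 14.9 and 14.6 CPM with vehicle and 13.5, 18.9 and 18.5 CPM with PTH, so that 1 PTH library lay below and the others above the vehicle range. With PTH the log2 fold change was 0.36 in WT cells (SE 0.095, adjusted p = 0.0266) and 0.17 in Y428F cells (95% interval -0.068 to 0.41, adjusted p = 0.402). The difference between these responses did not pass the test (-0.18, 95% interval -0.52 to 0.15, adjusted p = 0.884). The WT call was lost without WT vehicle replicate 3 (adjusted p = 0.108), WT PTH replicate 1 (0.0728) or WT PTH replicate 2 (0.103), with DESeq2's Wald test (0.0569) and with library totals only (0.0623). Between the lines *Ptk2b* itself did not pass the test, with log2 fold changes of 0.059 with vehicle (adjusted p = 0.715) and -0.12 with PTH (adjusted p = 0.399). Per kilobase, *Ptk2b* made up 16.1 ± 2.02% of the summed level of both focal adhesion kinases in WT cells with vehicle and 11.4 ± 0.840% in Y428F cells with vehicle (SD, n = 3), where *Ptk2* was higher. With the union of exons as length these shares were 14.7% and 10.4%.

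Counted over the list, 2 of the 9 kinase genes rose with PTH in WT cells (*Abl2* and *Ptk2b*), where 11.8% of all genes tested changed, 6.88% up and 4.91% down. In Y428F cells 1 of 9 rose (*Abl2*), where 12.4% of genes changed, 6.61% up and 5.78% down. Of the genes that changed, 58.4% rose in WT cells and 53.4% in Y428F cells, and with library totals only these shares were 38.0% and 38.1%. With vehicle 2 were higher (*Ptk2*, *Abl2*) and 2 lower (*Csk*, *Abl1*) in Y428F than in WT cells, and with PTH *Lyn* was added to those higher. These shares are close to the background, since 45.1% of all genes differed between the lines with vehicle, 22.4% higher and 22.7% lower, and 45.7% with PTH, 22.8% higher and 23% lower. At stricter limits, an adjusted p under 0.01 and an absolute log2 fold change over 0.3, PTH changed 5.27% of all genes in the WT line and 5.32% in the Y428F line, and 31% and 31.6% differed between the lines with vehicle and with PTH. Groups without overlap in CPM were found for *Abl2* with PTH in Y428F cells, as for 30.8% of all genes. Between the lines they were found for 5 members with vehicle (53.8% of all genes) and 5 with PTH (51.9%). No member differed in its response between the lines (edgeR's quasi-likelihood test; also none at an unadjusted p under 0.05, and none with DESeq2's Wald test), where 0.413% of genes did, 0.17% with a larger and 0.243% with a smaller log2 response in Y428F cells, and 0.124% at the stricter limits. The median log2 fold change of the 9 genes was 0.091 with PTH in WT cells, beside -0.015 over all genes tested, and 0.10 beside -0.0067 in Y428F cells. Between the lines it was 0.071 beside 0.012 with vehicle and 0.026 beside 0.019 with PTH. The response to PTH within Y428F cells and the difference between the lines share libraries and are not independent.

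**Figure D3:**
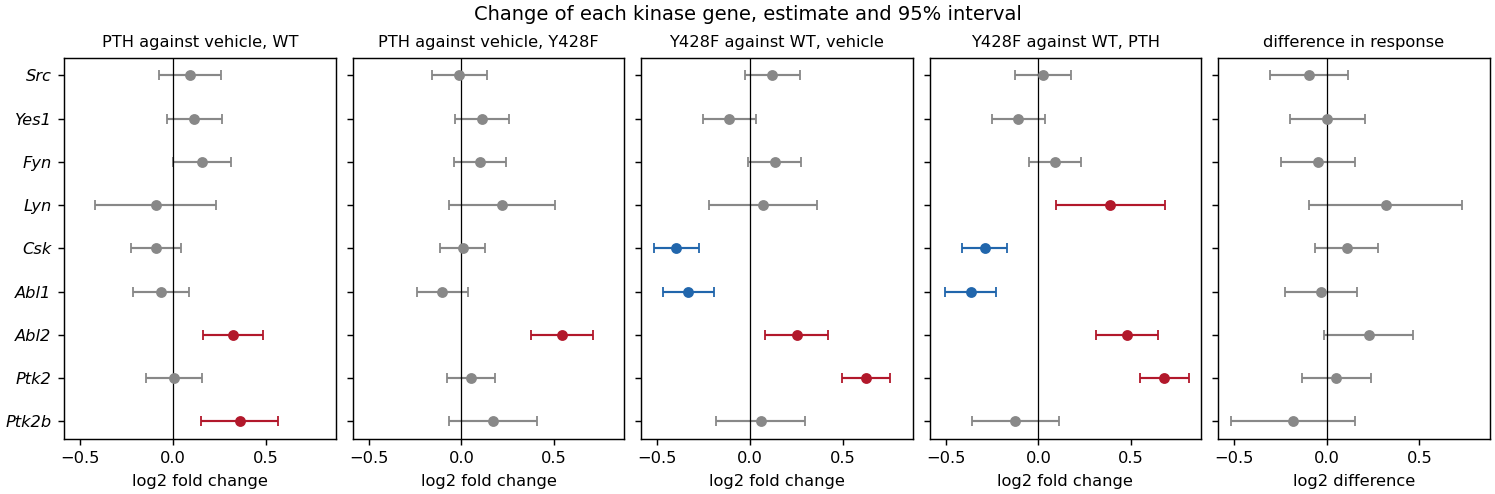
Log2 fold change (points) and 95% interval (bars) of the 9 kinase genes in 5 comparisons, the last being the response of Y428F cells minus that of WT cells. Genes higher at an adjusted p under 0.05 are red, genes lower are blue and the others are grey: *Abl2* is red in the first 4 panels, and all genes are grey in the last.

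Because a line can differ over whole chromosomes, the difference of each kinase gene with vehicle was set beside the genes of its own chromosome with a mean of at least 4 CPM. The median of all chromosomes was -0.0047 on the log2 scale. *Csk* lies on chromosome 9, where 572 genes had a median of -0.24, and 33.2% of them were lower than *Csk*. *Ptk2* lies on chromosome 15, where 434 genes had a median of 0.20, and 81.6% were lower than *Ptk2*. *Fyn* lies on chromosome 10, where 489 genes had a median of 0.25, above the 0.13 of *Fyn*. *Abl1* and *Src* share chromosome 2, where the median of 841 genes was -0.057, and 23.7% of them were lower than *Abl1*. The median around *Abl2* on chromosome 1 was 0.077 over 579 genes. Within 1 Mb, a window chosen after these values were seen, 24 of 26 genes around *Csk* had a negative log2 fold change (median -0.35), as did 33 of 38 around *Abl1* (median -0.26). The 8 genes within 1 Mb of *Ptk2* had a median of -0.080. Around *Abl2* 7 of 12 genes had a negative log2 fold change (median -0.17). The part of these chromosome and neighbourhood values in the differences of *Csk*, *Abl1*, *Abl2* and *Ptk2* was not tested.

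**Figure D4:**
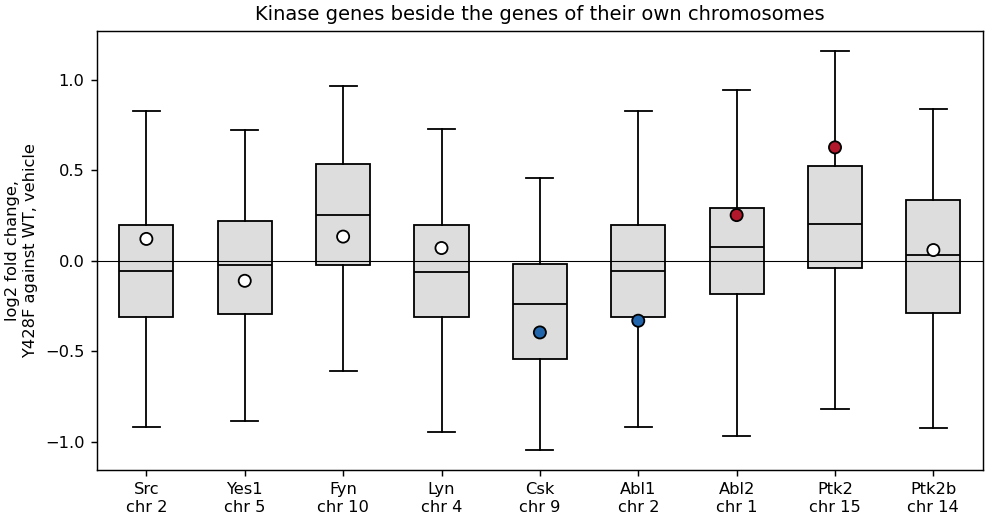
Log2 fold change of each kinase gene between Y428F and WT cells with vehicle (circles; red higher, blue lower, white not called) beside the genes of its chromosome with at least 4 CPM (boxes, quartiles and median; whiskers, percentiles 5 to 95). *Csk* lies within the box of chromosome 9, which sits below 0, and *Ptk2* above that of chromosome 15.

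The stretch upstream of the start site is shown for *Abl2*, the gene that changed with PTH in both lines. It holds the 250 bases before the start of the canonical transcript, 5′ to 3′ on the strand of the gene, in GRCm39 with GENCODE vM39. A motif match would be in capitals, and there was none.
Abl2, chr1:156386080-156386329, plus strand: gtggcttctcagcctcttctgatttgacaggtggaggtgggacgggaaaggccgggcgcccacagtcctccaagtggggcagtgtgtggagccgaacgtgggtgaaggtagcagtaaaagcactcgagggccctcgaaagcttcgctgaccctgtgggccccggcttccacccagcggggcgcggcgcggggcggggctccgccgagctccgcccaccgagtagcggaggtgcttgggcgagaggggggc
The motifs searched on both strands were TGACGTCA (the cAMP response element), TGACG (the core of that element, which overlaps it), GGAATG (the motif of the TEAD factors through which YAP acts), GCGGGGGCG (the EGR site) and the CArG box of SRF by its name. The *Abl2* stretch, with 68.8% GC and 21 CpG, held none of them. Over the stretches of the 9 kinase genes, GGAATG was found in 2 (*Abl1* and *Ptk2b*), TGACG in 1 (*Ptk2*) and the other motifs in none. Of 21770 promoters of protein-coding genes, 12.1% held GGAATG, 18% TGACG, 1.69% TGACGTCA, 2.39% GCGGGGGCG and 1.4% a CArG box. A match is only a stretch of letters, and binding was not measured.

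Further kinases of the Src and Csk families were at low levels apart from *Frk*, and among them *Fgr* and *Lck* were lower in Y428F cells with vehicle. *Fgr*, a kinase of myeloid cells, had 2.22, 1.42 and 1.34 CPM with vehicle and 1.36, 1.78 and 1.51 CPM with PTH in WT cells, and no count in any of the 6 Y428F libraries. Set against a floor of 3 counts per library, it was at least 10.4-fold lower in Y428F cells with vehicle and at least 9.31-fold lower with PTH. *Lck*, the kinase of T cells, was lower in Y428F cells with vehicle (log2 fold change -2.67, SE 0.54, adjusted p = 0.000334). *Frk* had 25.3 to 31.3 CPM in WT cells and 29.2 to 31.9 CPM in Y428F cells, and it was higher in Y428F cells with PTH (log2 fold change 0.25, adjusted p = 0.00921). *Matk*, a relative of *Csk*, had 0.582 to 1.76 CPM, and *Srms* at most 0.175 CPM. With PTH no gene of this list changed in either line by edgeR's quasi-likelihood test or DESeq2's Wald test, and none had an unadjusted p under 0.05.

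Among 13 genes for Csk anchors and for phosphatases, ubiquitin ligases and a docking protein that act on Src or FAK, 5 were higher and 2 lower in Y428F cells with vehicle, where 22.4% of all genes tested were higher and 22.7% lower. *Pag1*, the transmembrane anchor that brings Csk to Src family kinases, had 4.87, 4.15 and 5.47 CPM in the WT and 12.8, 14.3 and 13.4 CPM in the Y428F vehicle libraries (log2 fold change 1.48, SE 0.12, adjusted p = 2.18e-09). The anchor was higher in the line where *Csk* was lower. *Ptpn22*, a phosphatase of lymphocytes, was 1.98 higher on the log2 scale at 0.107 to 1.26 CPM, a call lost without Y428F vehicle replicate 2 (1.48, adjusted p = 0.0954) or WT vehicle replicate 3 (1.68, adjusted p = 0.0538). *Ptprj* was 0.34 higher. *Ptpra*, a receptor phosphatase that activates Src by removing the tail phosphate, was lower in Y428F cells (log2 fold change -0.36, adjusted p = 6.17e-06), as was the ubiquitin ligase gene *Cblb* (-0.39, adjusted p = 0.000519). With PTH, 3 of the 13 were higher and 3 lower in Y428F cells, led by *Pag1* (1.80) and by *Lime1*, another anchor of Csk (-1.03), beside 22.8% and 23% of all genes.

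With PTH, 1 of these 13 genes rose and 1 fell in WT cells, and 2 rose and 1 fell in Y428F cells. Of all genes tested, 6.88% rose and 4.91% fell in WT cells, and 6.61% rose and 5.78% fell in Y428F cells. *Ptpn12* (PTP-PEST), a phosphatase that acts on the adaptor p130Cas, went from 47.2, 45.6 and 47.8 CPM to 65.0, 68.9 and 57.8 CPM in WT cells. Its log2 fold change was 0.45 (SE 0.077, adjusted p = 0.00196) in WT cells and 0.34 (SE 0.068, adjusted p = 0.00192) in Y428F cells. *Dok1*, a docking protein that Src family and Abl kinases phosphorylate, fell in WT cells (log2 fold change -0.34, adjusted p = 0.0235), a call lost without WT vehicle replicate 2 (0.107) or 3 (0.0919) or WT PTH replicate 1 (0.0827) or 2 (0.0996). In Y428F cells *Pag1* rose further, to 18.4, 19.6 and 16.2 CPM (log2 fold change 0.42, SE 0.10, adjusted p = 0.0103), a call lost without Y428F vehicle replicate 1 (adjusted p = 0.0516) or Y428F PTH replicate 2 (0.0545). *Lime1* fell there from 4.26 to 5.11 CPM to 2.11 to 3.59 CPM (log2 fold change -0.66, SE 0.21, adjusted p = 0.0459). The call of *Lime1* was lost in 8 of the 12 fits that left out a library, WT libraries included, at adjusted p from 0.0502 to 0.221. That call was also lost with the replicate number as a block (adjusted p = 0.0502) and with DESeq2's Wald test (0.0525).

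Of the 25 focal adhesion adaptors and substrates, 22 were tested in WT cells, where 4 rose and 1 fell with PTH, and 24 in Y428F cells, where 5 rose and 2 fell. The shares over all genes were 6.88% up and 4.91% down in WT cells and 6.61% up and 5.78% down in Y428F cells. *Vcl*, which encodes vinculin, the link of adhesions to actin, had 342, 388 and 380.5 CPM with vehicle and 936, 1018 and 899 CPM with PTH in WT cells. In Y428F cells it had 281, 280.3 and 278 CPM with vehicle and 457, 608 and 542 CPM with PTH. The groups were far apart in both lines, with log2 fold changes of 1.37 (SE 0.071, adjusted p = 6.05e-08) and 0.94 (SE 0.080, adjusted p = 1.32e-07). *Tgfb1i1* (HIC-5), a paxillin relative that binds FAK and PYK2, rose in WT cells from 78.8, 89.7 and 91.8 CPM to 142, 143 and 131 CPM (log2 fold change 0.68, SE 0.068, adjusted p = 2.72e-05). In Y428F cells it had 73.6, 70.3 and 72.1 CPM with vehicle and 82.4, 82.2 and 81.3 CPM with PTH, and its log2 fold change of 0.19 missed the limit (adjusted p = 0.0530), a value that passed in some other settings, such as DESeq2's Wald test (0.0446). Its response was smaller in Y428F cells by the test of the difference itself (log2 difference -0.49, SE 0.086, adjusted p = 0.0112), a call lost without WT PTH replicate 1 by a narrow margin (-0.46, adjusted p = 0.05001). For *Vcl* the difference in response was -0.42 and did not pass (SE 0.11, adjusted p = 0.163), although it did with the replicate number as a block (adjusted p = 0.0404), with DESeq2's Wald test (0.0493), with no filter on low counts (0.000533) and without Y428F PTH replicate 2 (0.0181).

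*Pik3r1*, the regulatory subunit of PI 3-kinase, rose in both lines (log2 fold changes of 0.66 and 0.40), as did *Rb1cc1*, which encodes the FAK inhibitor FIP200 (0.32 and 0.35). In WT cells the call of *Rb1cc1* was lost without WT PTH replicate 2 (adjusted p = 0.056). *Nedd9*, a member of the p130Cas family, fell in WT cells from 111, 120 and 114 CPM to 81.6, 81.0 and 87.3 CPM, and in Y428F cells from 58.7, 68.5 and 64.5 CPM to 44.6, 46.6 and 44.2 CPM. Its log2 fold changes were -0.45 (SE 0.063, adjusted p = 0.000426) and -0.50 (SE 0.065, adjusted p = 2.34e-05). *Bcar1*, which encodes p130Cas itself, and the adaptor *Crk* rose in Y428F cells (0.31 and 0.19), and *Tns1*, a tensin, fell (-0.38). The call of *Crk* was lost with library totals (adjusted p = 0.108) and without any 1 of 5 of the 6 Y428F libraries, all but PTH replicate 2 (0.0605 to 0.117). That of *Tns1* was lost without Y428F vehicle replicate 1 (log2 fold change -0.35, adjusted p = 0.0674) or Y428F PTH replicate 1 (-0.24, adjusted p = 0.0682). In WT cells the log2 fold changes of *Bcar1*, *Crk* and *Tns1* did not pass the test, and no difference in their response passed it. The fall of *Tns1* in WT cells did pass with library totals only (-0.29, adjusted p = 0.0273) and with no filter on low counts (-0.23, 0.0237). It also passed without WT vehicle replicate 1 (-0.31, 0.00507).

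Between the lines with vehicle, 4 of the 24 focal adhesion genes were higher and 7 lower in Y428F cells, a share close to the 45.1% of all genes that differed (22.4% higher and 22.7% lower). *Shc1*, an adaptor of growth factor and integrin signals, had 583, 682 and 654 CPM in the WT libraries and 298, 298 and 293 CPM in the Y428F libraries (log2 fold change -1.11, SE 0.057, adjusted p = 2.37e-12). *Nedd9* (-0.84) and the tensins *Tns1*, *Tns2* and *Tns3* (-0.61, -0.61 and -0.55) were lower too, as were *Vcl* (-0.40) and *Tgfb1i1* (-0.27). *Tln2*, which encodes talin 2, an activator of integrins, had 34.4, 38.0 and 40.4 CPM in the WT libraries and 67.2, 62.1 and 63.3 CPM in the Y428F libraries (0.77, SE 0.081, adjusted p = 9.89e-08), and *Arhgap35* and *Crk* were higher by 0.22 and 0.20. The call of *Arhgap35* was lost without WT vehicle replicate 1 (0.17, adjusted p = 0.0564). With PTH, 3 of the genes were higher and 8 lower, led by *Tln2* (0.72) and *Shc1* (-1.04), where 45.7% of all genes differed.

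Of 11 Abl partners and substrates, 3 rose with PTH in WT cells (*Abi2*, *Enah* and *Cap1*, with log2 fold changes of 0.27, 0.25 and 0.22) and 1 fell (*Sorbs3*, -0.28), whereas in Y428F cells 1 rose (*Abi1*, 0.22). Of all genes tested, 11.8% changed in WT cells and 12.4% in Y428F cells. *Abi1* and *Abi2* are Abl interactors of the WAVE complex, which builds branched actin, and *Enah* and *Cap1* encode actin regulators. All 4 calls in WT cells depended on single libraries. Without a WT vehicle or PTH library, adjusted p reached 0.0759 for *Abi2*, 0.107 for *Enah*, 0.0961 for *Cap1* and 0.0761 for *Sorbs3*, and *Sorbs3* was lost without WT vehicle replicate 3 or WT PTH replicate 1. With WT vehicle replicate 3, WT PTH replicate 1 or WT PTH replicate 2 left out, each of the 3 genes that rose lost its call, and *Abi2* and *Enah* did so without WT vehicle replicate 2 too. With library totals the same 3 were not called either (adjusted p = 0.0714, 0.0674 and 0.0857), and with the replicate block *Enah* (0.0504) and *Cap1* (0.0768) were not. No difference in response passed the test for this list (1 gene at an unadjusted p under 0.05, none with DESeq2's Wald test). Between the lines with vehicle 1 gene was higher, *Rin1*, an activator of Abl kinases (log2 fold change 0.54, SE 0.069, adjusted p = 1.34e-06). The other 6 that differed were lower in Y428F cells, led by *Sorbs2* (-0.80), *Nck2* (-0.34) and *Enah* (-0.28). With PTH 2 were higher and 7 lower. With library totals only, the calls of *Abi2* (adjusted p = 0.257), *Nck1* (0.123) and *Nck2* (0.107) with PTH were lost. The call of *Sorbs3*, higher with PTH, was lost without Y428F PTH replicate 2 (0.363). With vehicle *Abi1* (0.0545) and *Cap1* (0.114) lost their calls with library totals. Of all genes, 45.1% differed between the lines with vehicle (22.4% higher and 22.7% lower) and 45.7% with PTH (22.8% higher and 23% lower).

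**Figure D5:**
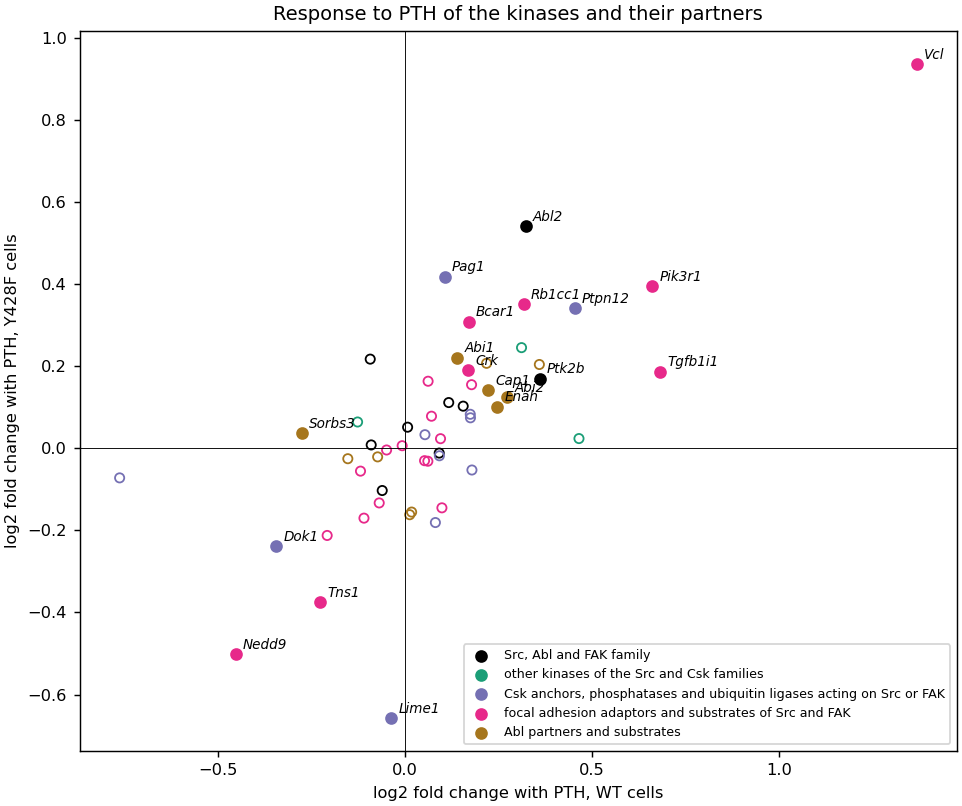
Log2 fold change with PTH in WT cells (x axis) and in Y428F cells (y axis) of the 9 kinase genes (black) and of the partner genes with at least 200 counts in all, coloured by list. Filled and named points passed an adjusted p of 0.05 in at least 1 line: *Vcl* lies at 1.37 and 0.94, *Abl2* at 0.32 and 0.54, and *Tgfb1i1* at 0.68 and 0.19.

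The genes whose pattern over the 12 libraries was most like that of *Src*, by the mean absolute difference of log2 CPM after each gene's own mean was removed, were *Sbno2* (0.038), *Sbf1* (0.042) and *Niban2* (0.043), out of 11218 genes with at least 2 CPM. The values of *Src* deviated from their own mean by 0.079 on the same measure, so these are patterns of little change. Those most like *Ptk2* were *Cs*, which encodes citrate synthase (0.034), *Epb41l2* (0.042) and *Eftud2* (0.048), beside a deviation of 0.33 for *Ptk2* itself. *Cs* stood at 212 ± 12.6 CPM in the WT and 337 ± 17.3 CPM in the Y428F vehicle libraries.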

How the data were processed

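RNA of W-20 cells was sequenced in bulk, in 12 libraries. The authors mapped reads with STAR 2.7.10b to GRCm39 with GENCODE vM31 (basic) and deposited the expected counts of RSEM (version not given in the sources used here), not scaled for depth or length. Expected counts were rounded and fitted with edgeR 4.0.16 in R 4.3.3 (TMM, quasi-likelihood test, Benjamini-Hochberg adjustment), for genes with at least 10 counts in all. Tables were made with Python 3.11.15, positions and sequences came from GENCODE vM39, and 56236 of 56980 identifiers matched it. Alternatives were DESeq2 1.42.0 (size factors, Wald test), library totals, other filters and limits, the replicate number as a block, a fit of all libraries for WT cells, exon union lengths, and each library left out. The study's own analysis used DESeq2. The tests were checked on simulated counts, and no outcome of that check is given here. The kinase genes and the lists were chosen with earlier results of these data known. Named were all kinase genes, the up to 3 genes per list, comparison and direction with the largest change among those called, relatives with counts, and the 3 genes most like *Src* and *Ptk2*; others were chosen after their values were seen. Depth was 17127897 to 19057319 counts.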

Additional observations from a re-analysis of the deposited data

Results flagged for a closer look

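These 2 results stood out because the response to PTH differed between the lines or ran in opposite directions. For *Tgfb1i1* the log2 response was 0.68 in WT and 0.19 in Y428F cells, a difference of -0.49 that passed the test (quasi-likelihood test of edgeR, adjusted p = 0.0112) and that narrowly missed it without WT PTH replicate 1 (adjusted p = 0.05001). For *Frk* all PTH libraries of WT cells lay below all vehicle libraries, and all PTH libraries of Y428F cells lay above theirs, a log2 difference of 0.20 that did not pass the test (unadjusted p = 0.0713, adjusted p = 0.762). Neither change with PTH passed the quasi-likelihood test (log2 fold change -0.13, adjusted p = 0.358 in WT cells, and 0.064, adjusted p = 0.671 in Y428F cells). Groups without overlap were found for 29% of all genes tested in WT cells and 30.8% in Y428F cells.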

How the results depend on the processing

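Counts of called genes depended on the scaling, the limit and single libraries. With library totals only, the kinase genes that rose with PTH in WT cells were 1 in place of 2 (1 also with DESeq2's Wald test), and those higher in Y428F cells with vehicle were 4 in place of 2. The partner genes, all lists together, were then 5 higher in place of 8 and 5 lower in place of 3 with PTH in WT cells, and 6 lower in place of 3 in Y428F cells. With the limits at 0.01 (adjusted p) and 0.3 (absolute log2), 0 kinase genes rose in WT cells, 1 was higher with vehicle and 1 was lower with PTH in Y428F cells. At that limit the partner genes were 4 higher and 1 lower in WT cells, 5 higher and 1 lower in Y428F cells, 6 higher with vehicle and 4 higher with PTH between the lines, and 0 with a lower response. With no filter, 6 partner genes fell in WT cells. The partner genes with a smaller response in Y428F cells were 2 in place of 1 (*Tgfb1i1* and *Vcl*) with the replicate block, DESeq2's Wald test or no filter. Each library left out in turn gave 0 to 2 kinase genes higher with PTH in WT cells and 1 to 3 higher with vehicle between the lines. It gave 4 to 9 partner genes higher and 1 to 5 lower in WT cells, 1 to 4 lower in Y428F cells, and 0 to 2 with a smaller response. Directions turned only for values near 0. *Ptk2* with PTH in WT cells was -0.052 with library totals and -0.000553 with all 12 libraries fitted together, and *Csk* in Y428F cells was -0.032 with library totals. Without a library the log2 range was -0.19 to 0.029 for *Lyn*, -0.12 to 0.0039 for *Abl1* and -0.028 to 0.068 for *Ptk2* with PTH in WT cells, -0.061 to 0.033 for *Src* and -0.035 to 0.033 for *Csk* in Y428F cells, and -0.021 to 0.13 for *Lyn* between the lines with vehicle. It was -0.036 to 0.065 for *Src* and -0.22 to 0.0041 for *Ptk2b* between the lines with PTH, and -0.062 to 0.047 for *Yes1* and -0.088 to 0.029 for *Abl1* in the difference in response. With the union of exons as length, the level in WT cells with vehicle was 16.5 CPM per kilobase for *Src*, 3.69 for *Yes1*, 3.97 for *Fyn*, 1.38 for *Lyn*, 18.5 for *Csk*, 19.1 for *Abl1*, 5.09 for *Abl2*, 6.34 for *Ptk2* and 1.09 for *Ptk2b*, which put *Abl2* above *Fyn* and *Yes1* and *Lyn* above *Ptk2b*. The cause of these changes was not tested, apart from the limit and the length, which act by construction.

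The labels number the replicates alike in every group, but same-numbered libraries did not deviate together (mean r 0.0022 over 18 pairs, -0.15 to 0.24). With the replicate block, kinase genes were called as before (2 higher in WT cells, 1 in Y428F cells), and partner genes that rose in WT cells were 6 in place of 8. Low counts limit the precision of *Lyn* and *Ptk2b* among the kinase genes described, and of *Fgr*, *Lck*, *Matk*, *Srms*, *Ptpn22*, *Lime1* and *Pag1* among the others.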
